A study of Mus musculus with 24 samples.

Results

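The gene set described here held 8 genes that were selected on their log2 signal differences from siControl, for large rises in mouse liver with both Keap1 siRNAs, although they are known mainly from tissues other than liver: Dppa2, Usp50, Tafa2, Tinag, Pls1, Ly6d, Serpinb1a and Slc1a1. They were 8 of 18193 genes represented on the arrays, and 13 of 45037 probe sets were annotated to 1 of them alone. Total liver RNA was measured on 24 Affymetrix mouse genome arrays, with 8 mice each in the siKeap1-1, siKeap1-2 and siControl groups. siKeap1-1 and siKeap1-2 are different siRNAs against the Keap1 transcript, and siControl is a scrambled siRNA. All mice were male C57BL6/J, aged 8 weeks at the start, and all received a western diet, that is high-fat chow with 6% sucrose in the drinking water. Each mouse was given its siRNA at 1 mg per kg body weight by weekly injection into the tail vein for 7 weeks. The siRNAs were chemically modified and carried by lipid nanoparticles that reach mainly hepatocytes, whereas the arrays measured RNA of the whole liver. Per the methods each group mixed fed and fasted mice in equal number, but the labels do not say which, so that the spread within each group includes the feeding state. A probe set is the group of short probes whose brightness is summarised to the log2 signal of a transcript, and a difference of 1 on this scale is a 2-fold difference in signal.

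Keap1 is the adaptor through which a ubiquitin ligase marks the transcription factor Nrf2 for degradation. When Keap1 is lost or its cysteines are modified, Nrf2 accumulates and binds antioxidant response elements in front of genes for conjugation, glutathione synthesis and NADPH supply. The 8 genes have other textbook roles: Dppa2 is a DNA-binding protein of pluripotent cells and the early embryo, Tafa2 a small secreted protein of the brain, Tinag a basement membrane protein of the kidney tubule and Pls1 an actin-bundling protein of intestinal microvilli. Ly6d is a membrane-anchored surface protein of lymphoid precursors and squamous epithelium, Serpinb1a an inhibitor of neutrophil serine proteases, and Usp50 a member of the ubiquitin-specific peptidase family. Slc1a1 is the glutamate and cysteine transporter of neurons, kidney and intestine, and cysteine is a building block of glutathione.

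Keap1 was lower in both siRNA groups. Its signal ranged between 7.21 and 7.93 with siKeap1-1 (median 7.47), between 8.03 and 8.59 with siKeap1-2 (median 8.23) and between 9.33 and 10.03 in siControl mice (median 9.57), with no overlap between any of the groups. The log2 differences were -2.13 and -1.36 relative to siControl (SE 0.11, limma adjusted p = 2.28e-12 and 1.89e-08). Arrays of a group correlated at 0.988 to 0.996 over all probe sets. The 18S ribosomal RNA control probe set was 1.23 and 1.18 higher (log2) in siKeap1-1 and siKeap1-2 than in siControl mice, but this did not hold in all replicates. In siControl mice replicates 1 to 3 (10.34 to 10.77) stood above replicates 4 to 8 (8.86 to 9.54), while in siKeap1-1 mice replicates 1 to 3 (10.17 to 10.44) stood below replicates 4 to 8 (11.17 to 11.43). Within replicates 1 to 3 the difference from siControl was -0.28 with siKeap1-1 and 0.36 with siKeap1-2, and within replicates 4 to 8 it was 2.14 and 1.68. The labels name no batch. Refits on these replicates are given below for the larger shifts in counts, and for differences of the 8 genes that fell under 2-fold or turned sign. Other differences also varied between these replicates. Tafa2 with siKeap1-1 was 3.91 above siControl within replicates 1 to 3 and 3.02 within replicates 4 to 8. The correlations were not refitted. Hepatocyte markers were bright, as 9 measured genes averaged 14.02 to 14.12 with siKeap1-1, 14.06 to 14.19 with siKeap1-2 and 14.16 to 14.24 in siControl mice. None of the 9 passed an adjusted p of 0.05 (3 and 1 had an unadjusted p under 0.05, a share not counted over all genes). Every siKeap1-1 mouse lay below every siControl mouse in the average of the 9 genes. Tat had by far the largest difference among them with siKeap1-1 (-0.52), while the others lay between -0.14 for Ahsg and 0.00 for Ttr. Whether the mice separate without Tat was not tested.

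At the brightest probe set of each gene, all 8 genes were more than 2-fold higher than in siControl mice with either siRNA. Over all genes this held for 0.577% with siKeap1-1 and 0.539% with siKeap1-2. Since the genes were selected for these rises, their differences are given as a description and without a test. The median log2 difference of the 8 genes was 2.83 with siKeap1-1 and 2.77 with siKeap1-2, beside 0.01 and -0.01 over all genes. The ranges of the siRNA mice and the siControl mice did not overlap for 5 of 8 genes with siKeap1-1 (1.12% of all genes, higher) and for 6 of 8 with siKeap1-2 (0.94%). In bulk liver RNA, more cells that express a gene and more RNA per cell cannot be told apart. Both comparisons share the same siControl mice, so that the values of the siRNAs are set side by side and not correlated.

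**Figure D1:**
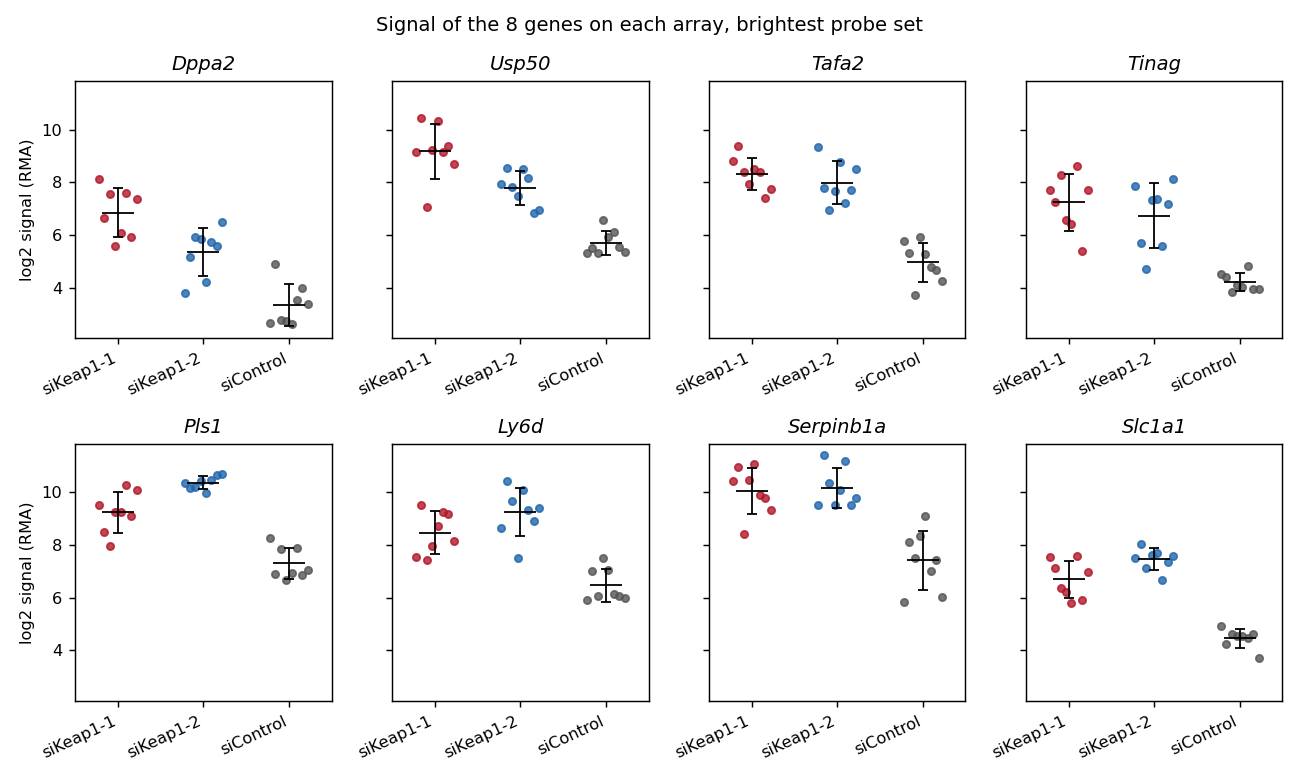
Log2 signal (vertical axis) of the 8 genes at their brightest probe set in the 3 groups, with each point an array, the long line the group mean and the error bar 1 SD (n = 8). In siControl mice the means lay between 3.33 for Dppa2 and 7.42 for Serpinb1a, and all 8 means were higher with both siRNAs.

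Dppa2 and Usp50 had the largest differences with siKeap1-1. The Dppa2 signal was 5.58 at the lowest, 6.99 at the median and 8.12 at the highest with siKeap1-1, against 3.78, 5.67 and 6.50 with siKeap1-2 and 2.64, 3.08 and 4.89 in siControl mice. All siKeap1-1 mice lay above every siControl mouse, and 6 of 8 siKeap1-2 mice did so, while siKeap1-2 replicates 1 (3.78) and 5 (4.20) fell below siControl replicate 2. The log2 differences were 3.52 and 2.02 (SE 0.41), which correspond to 11.5- and 4.04-fold. These folds are against a group at the lower end of the scale, since siControl replicates 1, 3, 4 and 5 lay at 2.64 to 2.79 and the 5th percentile of mean signals was 2.78. Usp50 reached 7.08, 9.19 and 10.44 (lowest, median, highest) with siKeap1-1, 6.84, 7.88 and 8.55 with siKeap1-2 and 5.31, 5.52 and 6.58 in siControl mice. Here neither siRNA group overlapped with siControl. The differences of Usp50 were 3.47 and 2.08 (SE 0.35).

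Tafa2 and Tinag encode proteins that leave the cell, a secreted factor and a matrix protein. Tafa2 was measured at 7.42, 8.38 and 9.38 with siKeap1-1, 6.94, 7.74 and 9.33 with siKeap1-2 and 3.74, 5.03 and 5.91 in siControl mice. The lowest mouse of each siRNA group was more than 1 log2 unit above the highest siControl mouse, the widest gap among the 8 genes for siKeap1-1. Its log2 differences were 3.35 and 3.02 (SE 0.34), or 10.2- and 8.12-fold. For Tinag the signal was 5.38, 7.49 and 8.62 with siKeap1-1, 4.71, 7.26 and 8.14 with siKeap1-2 and 3.84, 4.06 and 4.82 in siControl mice. The siControl mice were tightly grouped (SD 0.34), whereas the siRNA mice scattered widely (SD 1.07 and 1.24), and siKeap1-2 replicate 3 (4.71) lay within the siControl range. The differences of Tinag were 3.04 and 2.53 (SE 0.45).

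Pls1, the actin bundler of microvilli, had the tightest siRNA group of the set. Its signal was 7.97, 9.25 and 10.29 with siKeap1-1, 9.98, 10.39 and 10.69 with siKeap1-2 and 6.68, 6.98 and 8.27 in siControl mice. All siKeap1-2 mice lay close together (SD 0.24) and above every siControl mouse, while siKeap1-1 replicate 3 (7.97) lay below siControl replicate 1 (8.27). The log2 differences were 1.94 and 3.06 (SE 0.27), or 3.84- and 8.36-fold. With siKeap1-1 the difference was 0.99 within replicates 1 to 3 of both groups and 2.51 within replicates 4 to 8, an alternative chosen after seeing the data, which left the other 7 genes more than 2-fold higher in either part.

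Ly6d and Serpinb1a are known from blood cells, and Ly6d also from squamous epithelium. Ly6d was measured at 7.43, 8.42 and 9.53 with siKeap1-1, 7.52, 9.36 and 10.42 with siKeap1-2 and 5.91, 6.11 and 7.50 in siControl mice. The siKeap1-2 range cleared the siControl range by only 0.03, and siKeap1-1 replicate 3 (7.43) did not clear it. Its differences were 2.00 and 2.78 (SE 0.36). Serpinb1a had the brightest signal of the 8 probe sets in siControl mice and their widest spread there, with 8.43, 10.15 and 11.08 with siKeap1-1, 9.51, 9.93 and 11.40 with siKeap1-2 and 5.83, 7.46 and 9.10 in siControl mice. Signals of different probe sets are not comparable as RNA amounts, so that the order between genes describes brightness alone. The Serpinb1a differences were 2.62 and 2.75 (SE 0.43), and only siKeap1-1 replicate 3 (8.43) lay within the siControl range.

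Slc1a1, the cysteine and glutamate transporter, had the smallest standard error of the set. Its signal was 5.81, 6.68 and 7.60 with siKeap1-1, 6.66, 7.56 and 8.05 with siKeap1-2 and 3.70, 4.55 and 4.92 in siControl mice. Neither siRNA group overlapped with siControl, and the closest mice were 0.89 (siKeap1-1) and 1.74 (siKeap1-2) apart. The log2 differences were 2.24 and 3.00 (SE 0.24), or 4.71- and 7.99-fold.

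Not every probe set of these genes followed the brightest. Of the 13 probe sets, 9 were more than 2-fold higher with siKeap1-1 (0.453% of all probe sets) and 9 with siKeap1-2 (0.46%), and the remaining 4 belonged to Dppa2, Usp50 and Slc1a1. The further Dppa2 probe set 1429654_at differed by 0.12 and 0.07 (SE 0.08), with all 24 arrays between 3.18 and 3.91. The further Usp50 probe set 1430760_a_at differed by -0.005 and 0.07 (SE 0.08), with all 24 arrays between 4.24 and 4.86. Slc1a1 was covered by 1460386_a_at, with differences of 0.01 and 0.08 (SE 0.12), and by 1425415_a_at, with 0.41 and 0.54 (SE 0.14). The arrays lay between 3.88 and 4.92 at the former and between 2.91 and 4.33 at the latter. These 4 probe sets were thus dim in every group, where differences are compressed, so that they say little about a rise. Both Serpinb1a probe sets moved alike, with 2.54 and 2.62 at 1416318_at (SE 0.41). Hence for Dppa2, Usp50 and Slc1a1 the rise of more than 2-fold rested on 1 probe set each, 1453223_s_at, 1453670_at and 1448299_at. Slc1a1 was also higher, by less, at 1425415_a_at, where 3 siKeap1-1 and 5 siKeap1-2 mice lay above every siControl mouse. Tafa2, Tinag, Pls1 and Ly6d had 1 probe set only. The suffix _s_at at 1453223_s_at and 1448301_s_at marks probes that can match more than 1 transcript. A probe set annotated to both Usp50 and Polr2l was not used. When the probe sets of a gene were averaged, the differences of Dppa2 became 1.82 and 1.04, those of Usp50 1.73 and 1.07, and those of Slc1a1 0.88 and 1.20.

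**Figure D2:**
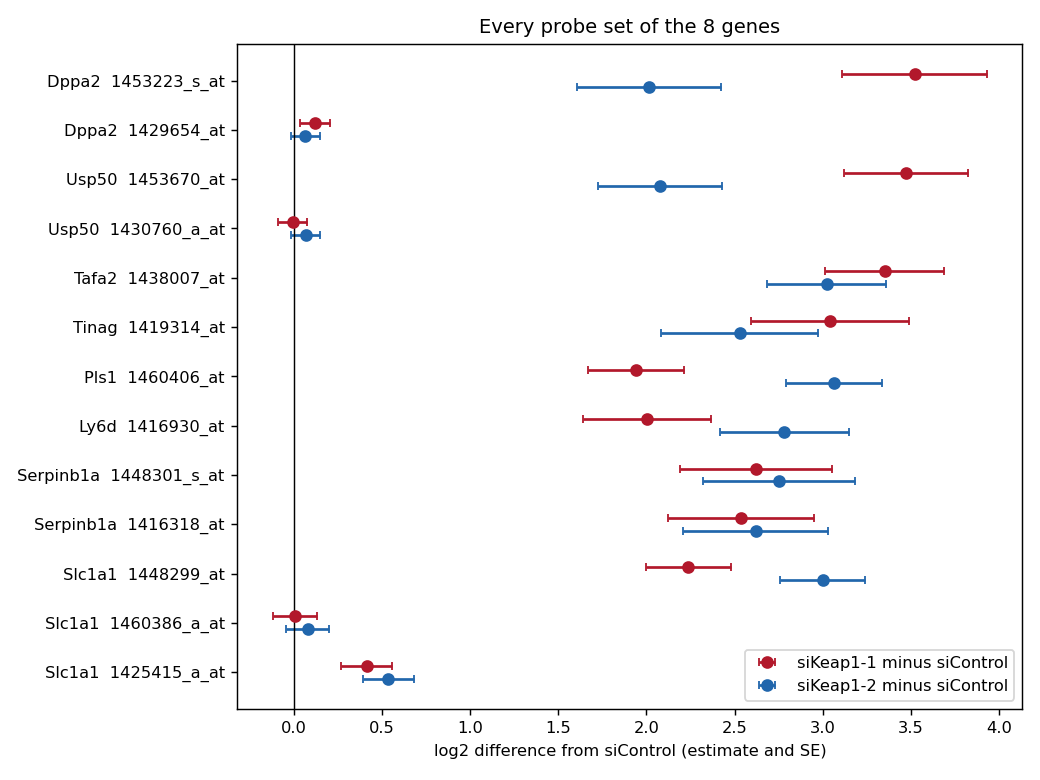
Log2 difference from siControl (horizontal axis, bars show the standard error) for each of the 13 probe sets, with siKeap1-1 and siKeap1-2 side by side. Dppa2, Usp50 and Slc1a1 each have 1 probe set more than 2-fold higher and further probe sets at 0.54 or below.

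Promoter sequence was available for 5 of the 8 genes (Usp50, Tafa2, Tinag, Pls1 and Slc1a1) in RefSeq windows of GRCm38.p6 that run over 250 bases before and 50 bases after the annotated start. Nrf2 is known to bind antioxidant response elements with the core TGACNNNGC. The 250 upstream bases are shown for Usp50 (chr2:126783461-126783710, minus strand), Pls1 (chr9:95845280-95845529, minus strand) and Slc1a1 (chr19:28834885-28835134, plus strand), the first with a larger mean signal under siKeap1-1 and the others under siKeap1-2, with capitals at each TGAC, the first part of the core, or at its reverse complement GTCA.
Usp50: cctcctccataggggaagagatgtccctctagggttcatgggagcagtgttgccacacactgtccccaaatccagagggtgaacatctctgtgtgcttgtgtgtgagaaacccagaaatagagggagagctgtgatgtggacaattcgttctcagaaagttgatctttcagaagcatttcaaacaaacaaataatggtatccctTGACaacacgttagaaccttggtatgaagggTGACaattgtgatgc
Pls1: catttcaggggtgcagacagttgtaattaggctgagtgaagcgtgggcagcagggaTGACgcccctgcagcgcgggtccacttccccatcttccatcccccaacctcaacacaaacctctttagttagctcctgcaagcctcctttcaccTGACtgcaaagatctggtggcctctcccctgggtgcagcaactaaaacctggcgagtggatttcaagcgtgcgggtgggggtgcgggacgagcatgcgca
Slc1a1: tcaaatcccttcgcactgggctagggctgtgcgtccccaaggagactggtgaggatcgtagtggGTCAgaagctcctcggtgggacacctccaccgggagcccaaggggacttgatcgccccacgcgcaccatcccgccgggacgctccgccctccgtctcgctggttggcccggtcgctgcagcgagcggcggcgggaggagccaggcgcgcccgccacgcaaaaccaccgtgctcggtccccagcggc
In these 250 bases TGAC or its reverse complement occurred 2 times for Usp50, 2 times for Pls1 and 1 time for Slc1a1, but without the GC that completes the core. TGACNNNGC, searched on both strands of the whole windows, was found in 0 of 5 and in 12.4% of the 32841 promoters of the table, and the same core followed by an A in 0 of 5 and 3.04%. TGANTCA, the related element bound by AP-1, occurred in the Usp50 window 27 bases after the start (7.81% of promoters), CCAAT in that of Tafa2 (37.4%) and TATAAA in none (13.6%). A match in these letters is a description of the window and says nothing about sites outside it.

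The siRNAs were then set beside each other. The genes were picked for large rises with both siRNAs, and some of them stood out as the largest rises of 1 siRNA, so that the values that chose them enter here as well and the differences are given as a description with no test for the single gene. The mean signals of Dppa2, Usp50, Tafa2 and Tinag were larger under siKeap1-1, and those of Pls1, Ly6d, Serpinb1a and Slc1a1 under siKeap1-2. None of the 8 passed an adjusted p of 0.05 in limma, beside 0.242% of all genes (44 of 18193), and 5 of 8 had an unadjusted p under 0.05, beside 9.29% of all genes, from which nothing is read for the reason given. Dppa2 averaged 6.85 with siKeap1-1 and 5.35 with siKeap1-2, a log2 difference of 1.50 (95% interval 0.65 to 2.36), and Usp50 averaged 9.18 and 7.78, a difference of 1.39 (0.66 to 2.12). These were the widest differences in favour of siKeap1-1. Pls1 averaged 9.24 with siKeap1-1 and 10.36 with siKeap1-2, a difference of -1.12 (-1.68 to -0.56), and Slc1a1 6.70 and 7.46, a difference of -0.76 (-1.26 to -0.26). Ly6d differed by -0.78 (-1.54 to -0.03). For the other genes the differences were 0.33 for Tafa2 (-0.37 to 1.03), 0.51 for Tinag (-0.42 to 1.44) and -0.13 for Serpinb1a (-1.02 to 0.77). Within replicates 4 to 8 the sign turned for Tinag (-0.18) and Serpinb1a (0.09). The sizes also depended on the processing and on the replicates used. Over the alternatives other than single arrays left out, the difference was 0.78 to 2.47 for Dppa2 and 0.66 to 1.76 for Usp50. It was -1.59 to -0.84 for Pls1, -0.89 to -0.32 for Slc1a1 and -1.41 to -0.40 for Ly6d. Tafa2 ranged from 0.03 to 0.83, Tinag from -0.18 to 1.67 and Serpinb1a from -0.48 to 0.09. The ranges of the siRNA groups overlapped for all 8 genes, whereas 0.214% of all genes had groups that did not overlap. Keap1 itself was 0.76 lower (log2) with siKeap1-1 than with siKeap1-2 (limma adjusted p = 0.0022). With single arrays left out the difference ranged from 1.21 to 1.69 for Usp50 and from -1.27 to -0.94 for Pls1.

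The spread among the mice of a group was larger for each of these genes than for Nqo1, a textbook Nrf2 target, in both siKeap1 groups. Nqo1 was 2.22 and 1.91 higher with siKeap1-1 and siKeap1-2 than in siControl mice (SE 0.10), and its SD was 0.16 with siKeap1-1 and 0.21 with siKeap1-2. For the 8 genes the SD was 0.62 to 1.07 with siKeap1-1 and 0.24 to 1.24 with siKeap1-2, with Pls1 lowest and Tinag highest in the siKeap1-2 group. Nqo1 does not stand for every Nrf2 target here. Hmox1, the most widely spread of the Nrf2 targets listed below, had an SD of 0.76 and 0.68, within the range of the 8 genes. It was next examined whether genes of the set varied together from mouse to mouse once the group means were taken out. Of 28 gene pairs over the 24 arrays, 17 correlated positively, and the median r was 0.06. When the mice were permuted within groups (100000 resamples), 4 pairs had an adjusted p under 0.05, and 3 by ranks. At an unadjusted p under 0.05 there were 8 pairs by Pearson r. The share among pairs of other genes was not counted, so that the 4 pairs are not read as a trait particular to these genes.

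The 4 pairs fell into a trio and a separate pair. Usp50 and Serpinb1a correlated at r = 0.70 (rank correlation 0.68, permutation p = 0.0001 and 0.00061, adjusted p = 0.0028 and 0.00854), and at 0.61 without the 2 arrays farthest from the median. Within the groups r was 0.94 with siKeap1-1, 0.67 with siKeap1-2 and 0.55 in siControl mice. Ly6d correlated with Serpinb1a at 0.61 (rank correlation 0.69, permutation p = 0.00135 and 0.00061, adjusted p = 0.0189 and 0.00854) and with Usp50 at 0.61 (rank correlation 0.67, permutation p = 0.00215 and 0.00119, adjusted p = 0.0201 and 0.0111). Without the 2 farthest arrays these were 0.58 and 0.51, and r lay between 0.46 and 0.82 in each group for both pairs. Tafa2 and Tinag formed the fourth pair, with r = 0.56 (rank correlation 0.56, permutation p = 0.00573 and 0.00911, adjusted p = 0.0401 and 0.0638), and 0.53 without the 2 farthest arrays. Its within-group values were 0.41 with siKeap1-1, 0.80 with siKeap1-2 and 0.43 in siControl mice, and by ranks the pair did not pass. Usp50, Ly6d and Serpinb1a also followed the strongest axis of variation within groups (16.9% of the residual variance over all probe sets), with r of 0.64, 0.68 and 0.70, while Tinag ran the other way at -0.62. The feeding state of the mice is not in the labels, and its part in this axis was not tested. With that axis also removed, an alternative chosen after seeing the data, the trio correlated less, at 0.46 for Usp50 with Serpinb1a, 0.32 for Usp50 with Ly6d and 0.26 for Ly6d with Serpinb1a, whereas Tafa2 with Tinag reached 0.77. Over all 28 pairs the median r was then 0.18 and 22 were positive.

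**Figure D3:**
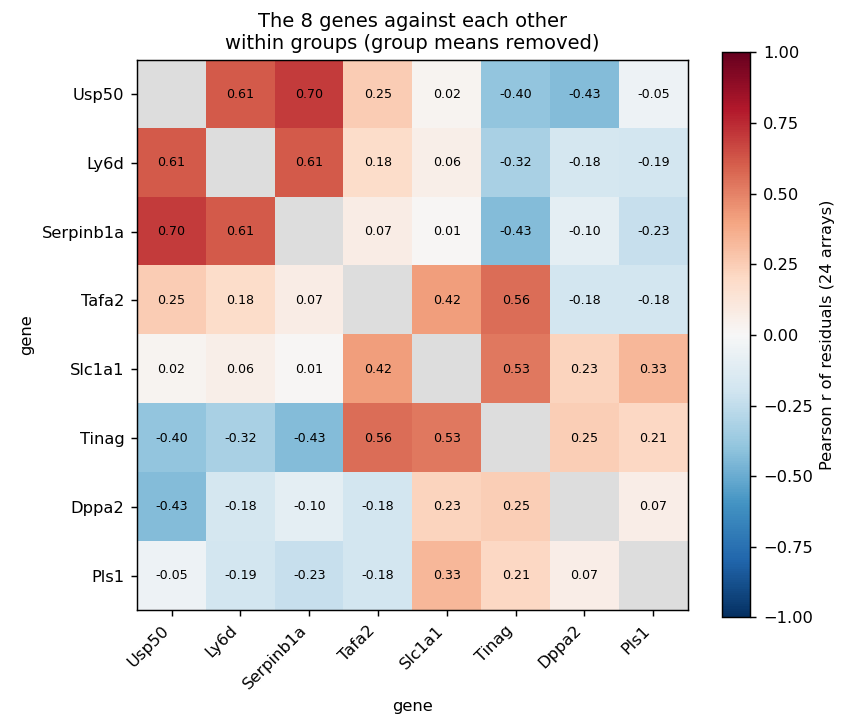
Pearson correlation (colour scale and printed value) between the 8 genes over 24 arrays after the group means were removed. Usp50, Ly6d and Serpinb1a form a block of 0.61 to 0.70, and Tafa2 and Tinag reach 0.56.

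Other genes with the most similar pattern from mouse to mouse were sought in the same way, over 24 arrays and all 18193 genes, as a description. Pls1 had the closest match, Slc23a1 (r = 0.91), followed by Tstd3 (0.82) and Mpv17l (0.81). Slc23a1, the ascorbate transporter, did not share the rise of Pls1, as its log2 differences from siControl were -0.04 and 0.04. Serpinb1a was most like Hsd17b11 (0.86), Slc6a16 (0.84) and Cabp4 (0.83), and Usp50 most like Ddx52 (0.85), Gpx7 (0.82) and Vstm4 (0.82). Ly6d came with Cln6 (0.83), Trib3 (0.79) and Jrk (0.79), and Trib3, a stress-induced pseudokinase, was itself 0.80 and 1.20 higher with siKeap1-1 and siKeap1-2 than in siControl mice. Tinag matched Tubb2a (0.82), Fmn1 (0.81) and Slc22a29 (0.81), of which Fmn1, with differences of -0.55 and -0.71, and Slc22a29, with -0.999 and -0.81, were lower than in siControl mice where Tinag was higher. Lower values were found for Tafa2 with Ikbip (0.77), Ncam1 (0.75) and Col6a3 (0.70), for Slc1a1 with Cldn13 (0.75), Dnajc9 (0.74) and Thnsl2 (0.68), and for Dppa2 with Kcnk1 (0.72), Slc35b1 (0.72) and Capn8 (0.70). Kcnk1 and Capn8, a potassium channel and a calpain protease, had differences of 1.37 and 1.81 and of 1.17 and 0.94 from siControl with siKeap1-1 and siKeap1-2.

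Within each siKeap1 group, the signal of the 8 genes was also set against that of Keap1 and of Nqo1 in the same mice. Of 32 relations, 4 had an unadjusted p under 0.05 and none an adjusted p under 0.05 (exact over 40320 pairings of 8 mice, lowest adjusted p = 0.285). The strongest was Dppa2 with Keap1 in the siKeap1-1 group, at r = -0.80 (exact permutation p = 0.00913) and rho = -0.83 (exact permutation p = 0.0154, adjusted p = 0.492), and -0.79 without the 2 farthest mice. Tinag with Keap1 reached -0.80 in the same group (exact permutation p = 0.0178, adjusted p = 0.285) but -0.66 without 2 mice, with rho = -0.67 (exact permutation p = 0.0831, adjusted p = 0.556). In the siKeap1-2 group Tafa2 correlated with Nqo1 at 0.77 (exact permutation p = 0.027, adjusted p = 0.288; rho = 0.71, exact permutation p = 0.0576), and 0.51 without the 2 farthest mice. The fourth was Slc1a1 with Nqo1 in the siKeap1-1 group, at 0.73 (exact permutation p = 0.044, adjusted p = 0.352) and 0.32 without the 2 farthest mice. Its rho was 0.60 (exact permutation p = 0.132). Leaving out the 2 farthest mice raised r with Nqo1 in the siKeap1-1 group to 0.92 for Usp50 (exact permutation p = 0.00556, 0.55 with all 8 mice), 0.88 for Ly6d (exact permutation p = 0.00417, 0.41 with all) and 0.82 for Serpinb1a (exact permutation p = 0.0361, 0.55 with all), and the adjusted p was 0.0889, 0.0889 and 0.289. Hence within a group the mice with the lowest Keap1 signal were not shown to have the highest signal of these genes.

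Relatives of the 8 genes by name were then compared with siControl. They were taken by the stem of the gene symbol, so that a few share the name rather than the protein family, among them Usp6nl, Usp46os2, Dppa3 and Dppa5a, none of which passed with either siRNA. Of 127 listed relatives, 94 were measured. With siKeap1-1, 8 of the 94 rose and 4 fell (12.8%, beside 9.49% of all genes, with 4.82% that rose and 4.67% that fell). With siKeap1-2, 1 rose and 4 fell (5.32%, beside 6.6% of all genes, with 2.85% that rose and 3.75% that fell). The median log2 difference of the relatives was 0.01 and -0.01. Serpinb1b, a close paralogue of Serpinb1a, was the only relative more than 2-fold higher, with a signal of 3.56 to 5.09 with siKeap1-1, 3.28 to 4.01 with siKeap1-2 and 2.98 to 3.61 in siControl mice. Its log2 difference was 1.06 with siKeap1-1 (SE 0.18, limma adjusted p = 0.000327) and 0.38 with siKeap1-2 (adjusted p = 0.219). Whether probes for Serpinb1a and Serpinb1b bind RNA of both genes was not tested. Serpinb9, an inhibitor of granzyme B, rose by 0.44 with siKeap1-1 (adjusted p = 0.0406). Ly6f, a relative of Ly6d, rose by 0.72 with siKeap1-1 (SE 0.08, adjusted p = 3.85e-06), differed by 0.23 with siKeap1-2 (adjusted p = 0.116), and was higher with siKeap1-1 than with siKeap1-2 (adjusted p = 0.0087). Its signal stayed dim in all groups, at 4.12 to 4.79 with siKeap1-1, 3.85 to 4.20 with siKeap1-2 and 3.55 to 3.81 in siControl mice.

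Among the other families, Tafa5 rose by 0.59 with siKeap1-1 (adjusted p = 0.00863) and was 0.31 higher with siKeap1-2 (adjusted p = 0.203). The plastin Lcp1, the leukocyte form of the actin bundler, rose by 0.24 and 0.28 with siKeap1-1 and siKeap1-2 (adjusted p = 0.0102 and 0.00529), far below the differences of Pls1. Among genes with the Usp stem, 3 of 50 rose and 4 fell with siKeap1-1, and 0 rose and 4 fell with siKeap1-2. Usp49, a histone H2B deubiquitinase, fell by 0.42 with either siRNA (adjusted p = 0.0127 and 0.0179), and Usp46 fell by 0.71 with siKeap1-2 (adjusted p = 6.5e-05), with -0.30 for siKeap1-1 (adjusted p = 0.0542). None of 6 Slc1a relatives passed (0 with an unadjusted p under 0.05), nor did any of 3 Dppa relatives (2 and 0 with an unadjusted p under 0.05). The share of all genes at this unadjusted p was not counted. With the 18S signal as a covariate 3 and 1 relatives passed, and 4 and 1 when siControl was limited to replicates 1 to 3. Within replicates 1 to 3 of each group 2 and 0 passed. Without siKeap1-1 replicate 5, siKeap1-1 replicate 8 or siControl replicate 7, 7 relatives passed with siKeap1-1, and without siControl replicate 1, 8 passed with siKeap1-2.

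**Figure D4:**
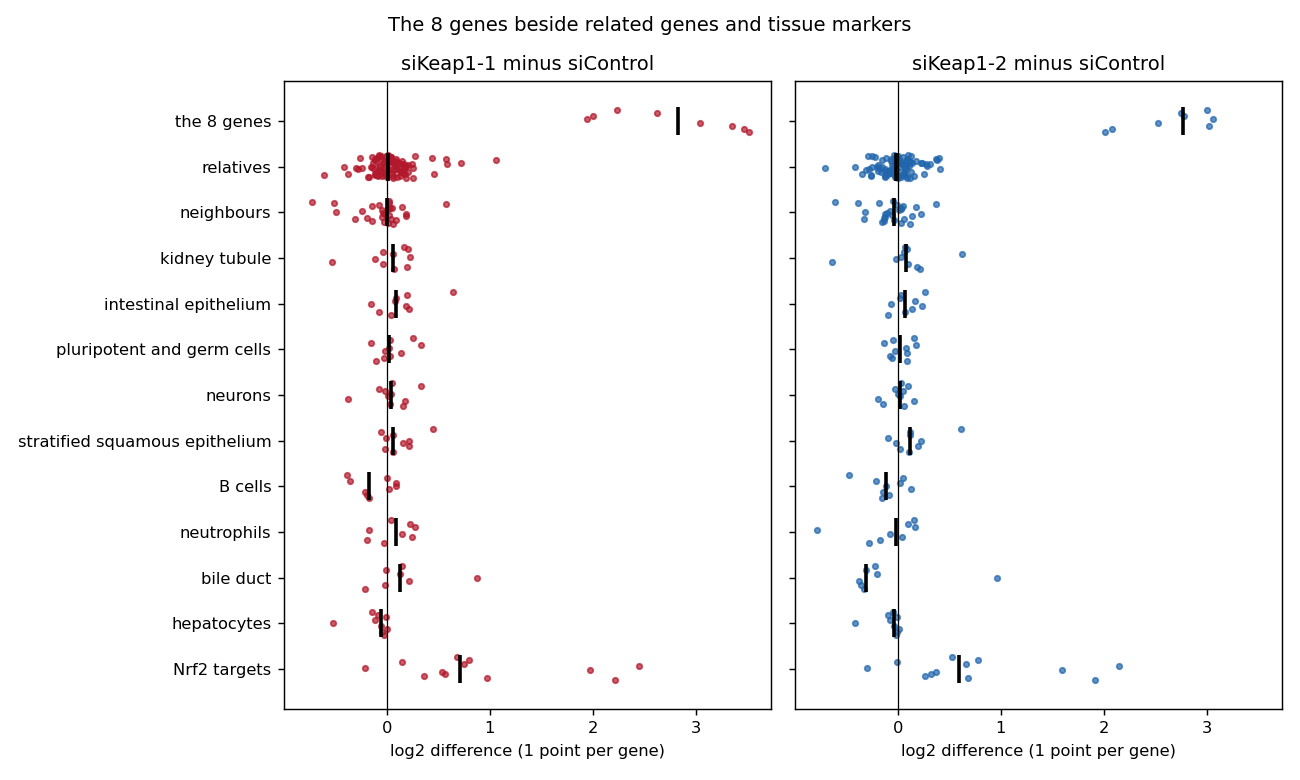
Log2 difference from siControl (horizontal axis, 1 point per gene at its brightest probe set, black bars the list medians) for the 8 genes and for the lists set beside them, with both siRNAs. The 8 genes lie between 1.94 and 3.52, whereas of the 94 relatives only Serpinb1b exceeds 1, with siKeap1-1.

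Genes next to the 8 on the chromosome were examined as a second set of relatives by position. Of 32 neighbours, the pair of nearest protein-coding genes on each side of each gene, 28 were measured, none rose, and 4 fell with siKeap1-1 and 2 with siKeap1-2 (14.3% and 7.14%, beside 9.49% and 6.6% of all genes in either direction). Trpm7, an ion channel with a kinase domain next to Usp50, fell by 0.31 and 0.33 (SE 0.09, adjusted p = 0.0369 and 0.0316). Rfx3, a transcription factor of ciliated cells near Slc1a1, fell by 0.51 and 0.39 (SE 0.11, adjusted p = 0.0029 and 0.0309). With siKeap1-1 Pcolce2 near Pls1 fell by 0.49 (adjusted p = 0.0212), and the Slc1a1 neighbour 4430402I18Rik fell by 0.72 (adjusted p = 0.0189). None of the 28 neighbours was more than 2-fold higher, and the highest difference was 0.58 with siKeap1-1 and 0.37 with siKeap1-2. Under some alternatives neighbours did rise with siKeap1-1, namely 1 without dim probe sets, 1 with array weights, 1 when siControl was limited to replicates 4 to 8, 1 within replicates 4 to 8 of each group and 2 with the first residual component as a covariate. With the 18S signal as a covariate 0 and 0 neighbours passed, and 1 and 0 when siControl was limited to replicates 1 to 3. Within replicates 1 to 3 of each group 0 and 0 passed. The siKeap1-2 count was 0 or 1 without siKeap1-2 replicate 1, 2, 4, 6 or 8 or siControl replicate 1, 5, 6, 7 or 8.

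Markers of tissues and cells from which 7 of the 8 genes are known were set beside them, together with markers of bile duct, another cell type of the liver. Of 80 markers of kidney tubule, intestinal epithelium, pluripotent and germ cells, neurons, squamous epithelium, B cells, neutrophils and bile duct, 72 were measured. With either siRNA 1 marker rose and 0 fell (1.39%, beside 9.49% and 6.6% of all genes), and 16 and 10 had an unadjusted p under 0.05. The share of all genes at that unadjusted p was not counted for these comparisons, so that nothing is read from the 16 and 10. Many markers were dim, as only 39 of the 72 had a mean signal of at least 5.0. Among these 39, in a fit without dim probe sets, 1 again rose and 0 fell with either siRNA. Dim signals are compressed, so that nothing is read from the low share of markers that passed. The marker that rose was Sox9, a transcription factor of bile duct cells, with differences of 0.87 and 0.96 (SE 0.13, limma adjusted p = 5.82e-05 and 2.7e-05). The other 6 measured bile duct markers did not pass, and all 6 had a negative difference with siKeap1-2, between -0.20 for Cftr and -0.38 for Epcam, and the 7 bile duct markers together had a median difference of 0.13 under siKeap1-1 and -0.31 under siKeap1-2. The bile duct list averaged 7.21 to 7.90 with siKeap1-1, 7.12 to 7.57 with siKeap1-2 and 7.20 to 7.70 in siControl mice. Leaving out siKeap1-1 replicates 3, 4, 5, 7 or 8, siKeap1-2 replicate 6 or siControl replicates 4, 6 or 7 gave 2 or 3 markers with siKeap1-1, and leaving out siKeap1-2 replicate 3 gave 2 with siKeap1-2.

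The summed level of the markers, given as the mean log2 signal of each list per array, overlapped between the groups for each list. The 10 kidney tubule markers averaged 4.36 to 4.69 with siKeap1-1, 4.45 to 5.15 with siKeap1-2 and 4.32 to 4.66 in siControl mice, beside the rise of Tinag and Slc1a1. The 9 intestinal markers averaged 5.47 to 5.72, 5.42 to 5.63 and 5.41 to 5.53 in the siKeap1-1, siKeap1-2 and siControl groups, beside Pls1. For Dppa2, the 10 pluripotent and germ cell markers averaged 4.38 to 4.63 with siKeap1-1, 4.38 to 4.54 with siKeap1-2 and 4.36 to 4.56 in siControl mice. None of these 3 lists had a marker that passed, and their averages lay below the series median of 5.87. Single markers were bright, as siControl mice averaged 13.73 for Fabp2 (intestinal list), 11.00 for Sycp3 (germ cell list) and 9.39 for Slc5a2 (kidney list). Beside Tafa2, the 10 neuronal markers averaged 4.72 to 5.01 with siKeap1-1, 4.71 to 4.96 with siKeap1-2 and 4.71 to 5.02 in siControl mice. Beside Ly6d, the 9 squamous markers averaged 5.69 to 5.90, 5.68 to 6.00 and 5.55 to 5.81 in the siKeap1-1, siKeap1-2 and siControl groups, and the 9 B cell markers 5.96 to 6.44, 6.00 to 6.38 and 5.93 to 6.65. The 8 neutrophil markers had the widest spread, at 5.70 to 7.45 with siKeap1-1, 5.84 to 6.95 with siKeap1-2 and 5.75 to 7.34 in siControl mice, and none passed.

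The 7 genes that had such a list (all but Usp50) were also correlated with its mean after the group means were removed, and none of 9 relations had an adjusted p under 0.05 (lowest adjusted p = 0.141, 1 with an unadjusted p under 0.05). Serpinb1a correlated with the neutrophil markers at r = -0.13 (permutation p = 0.561, rank correlation -0.17, permutation p = 0.439). Tafa2 with the neuronal markers had the highest value, r = 0.51 (permutation p = 0.0157, rank correlation 0.47, permutation p = 0.0305, adjusted p = 0.141 and 0.274), and 0.47 without the 2 farthest arrays. A list of 12 textbook Nrf2 targets was given as well, chosen with earlier results of these data known. Of these, 10 rose with siKeap1-1 (4.82% of all genes rose) and 9 with siKeap1-2 (2.85%). Their median differences were 0.72 and 0.60, with 2.45 and 2.15 for Gsta2, a glutathione transferase, and 1.97 and 1.60 for Srxn1, which reduces oxidised peroxiredoxins. Hmox1, for haem oxygenase, differed by -0.21 and -0.30 and Slc7a11, the cystine transporter, by 0.15 and -0.01, and neither passed with either siRNA. Slc7a11 averaged 2.77 with siKeap1-1, 2.62 with siKeap1-2 and 2.62 in siControl mice, below the 5th percentile of mean signals (2.78). Its probe set thus had hardly any signal, and whether Slc7a11 responded cannot be told.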

How the data were processed

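Liver RNA of 24 mice was measured on 1-colour arrays. The authors summarised the probes with RMA and deposited log2 signals, 1 value per probe set and array, with no RMA version stated. RMA subtracts background, equalises the distributions of the arrays and compresses dim signals, so that differences of dim genes are understated. After 64 control probe sets were left out, 45037 were fitted in limma 3.58.1 (R 4.3.3) with the 3 groups from the labels, and p-values were adjusted by Benjamini-Hochberg over all probe sets. A gene was represented by its brightest probe set of 1 annotated gene (34945 of 45037 probe sets; 932 named several genes and 9160 none). A gene passed at an adjusted p under 0.05. The SE is that of the fit over all 24 arrays. The study's two-way model needs the feeding state, which the labels do not give. The 8 genes, the lists and the tests were chosen with earlier results of these data known. The named genes were the 8, Keap1, Nqo1, up to 4 of each list that passed with the largest differences, first those that passed with both siRNAs, and the 3 most similar genes of each. Those of them described further were chosen after their values were seen. Some genes of the lists that did not pass were named as well, also after their values were seen. The labels number the mice 1 to 8 in each group, and deviations of same-numbered arrays from their group means correlated between -0.17 and 0.28. Of 24 such pairs, 9 exceeded 0.1, the value set as counting as pairing. The main fit did not use the numbers as pairs, and a fit with the replicate number as a block is given below. The scripts were tested on simulated data. The number of arrays limits the precision. Alternatives were another normalization, dim probe sets left out, array weights, trended and robust moderation, the compared groups alone, 18S or the first residual component as a covariate, subsets of the controls or of the replicates of every group, the mean over probe sets, the study's thresholds and each array left out.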

Additional observations from a re-analysis of the deposited data

Results flagged for a closer look

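In the siKeap1-1 group, replicate 2 stood apart at the Slc1a1 probe set 1425415_a_at, with a signal of 4.33 where the other 7 mice lay between 3.15 and 3.69. It was 1 of 45 groups of 8 arrays examined, of which chance alone marks about 1 in 20. The 18S ribosomal RNA control probe set, outside the gene comparisons, was 1.23 higher (log2) with siKeap1-1 and 1.18 higher with siKeap1-2 than in siControl mice (exact two-sided permutation p = 0.00435 and 0.00155). Within replicates 1 to 3 the difference was -0.28 and 0.36, and within replicates 4 to 8 it was 2.14 and 1.68.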

How the results depend on the processing

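The count of genes more than 2-fold higher remained 8 of 8 with either siRNA under each alternative that was run, except for 7 with siKeap1-1 under the mean over probe sets or within replicates 1 to 3 of each group, and it was 8 whichever array was left out. Between siKeap1-1 and siKeap1-2, 1 of the 8 genes passed with the first residual component as a covariate, 3 at the study's thresholds (fold change over 2, unadjusted p under 0.01) and 0 to 1 with an array left out. Nothing is read from these counts, since the values that chose the genes enter here as well. Relatives that passed with siKeap1-1 numbered 3 with the 18S covariate, 4 with siControl replicates 1 to 3, 1 at the study's thresholds and 7 to 14 with an array left out, beside 12, and 2 within replicates 1 to 3 of each group. With siKeap1-2 there were 5, against 8 without dim probe sets, 8 with array weights, 8 with the first residual component, 8 with siControl replicates 4 to 8, 1 with the 18S covariate, 1 with siControl replicates 1 to 3, 0 at the study's thresholds or within replicates 1 to 3 of each group and 4 to 8 with an array left out. Markers with siKeap1-1 numbered 1, against 2 with trended and robust moderation, with array weights or with the 18S covariate, 3 with the first residual component or within replicates 4 to 8 of each group, 4 by the mean over probe sets, 0 at the study's thresholds and 1 to 3 with an array left out; with siKeap1-2 they numbered 0 at the study's thresholds or within replicates 1 to 3 of each group and 1 to 2 with an array left out. Neighbours with siKeap1-1 numbered 4, against 7 with the first residual component, 0 with the 18S covariate, 1 with siControl replicates 1 to 3, 0 within replicates 1 to 3 of each group and 0 at the study's thresholds; with siKeap1-2 they numbered 2, against 1 after a further quantile normalization or within replicates 4 to 8 of each group, 0 within replicates 1 to 3 of each group, 0 with the 18S covariate, with siControl replicates 1 to 3, by the mean over probe sets or at the study's thresholds, and 0 to 3 with an array left out. The fits within replicates 1 to 3 and 4 to 8 were chosen after seeing the data and use fewer mice. The cause of the other shifts was not tested.

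With the replicate number as a block, 8 of 8 genes were more than 2-fold higher with either siRNA, and 0 passed between the siRNAs. In that fit 11 and 5 relatives, 1 and 1 markers and 4 and 3 neighbours passed with siKeap1-1 and siKeap1-2. Of 24 same-numbered pairs of arrays between the groups, 4 had the best correlation at the own number, judged from 1 array of each pair. Dim signals, a mean under 5.0, limit the siControl values of Dppa2 (3.33), Tinag (4.20), Slc1a1 (4.46) and Tafa2 (4.97).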
